A study of Mus musculus with 37 samples.

Results

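Brown adipose tissue (BAT) of 35 BXD strains was ranked by a thermogenic score, and the 12 strains with the highest score were compared with the 12 with the lowest. The score of a strain was the mean of 7 transcripts, *Ucp1*, *Cidea*, *Dio2*, *Elovl3*, *Ppargc1a*, *Cox7a1* and *Cox8b*, each read from its brightest probe set. Both groups together hold 24 of the 37 arrays of the series. The other arrays are 11 BXD strains between the groups and both parents of the panel, C57BL/6J and DBA/2J. The groups were cut from measured values and are not groups that the study set up. The 7 score genes are therefore only described, and tests were made on the other transcripts.

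The BXD strains are recombinant inbred lines from a cross of C57BL/6J with DBA/2J, and each strain carries its own fixed mixture of the parental alleles. All mice were males kept on Harlan chow and killed at 29 weeks after a night without food. RNA of about 5 mice of a strain was combined in equal parts and hybridised to 1 Affymetrix MoGene 2.0 array, so the strain is the replicate and the spread between mice of a strain was not measured. All groups share diet, age, sex and fasting, and the labels name no cold exposure or drug. Values are in rescaled units, in which each array has the same mean (8) and the same standard deviation (2). Folds given below take 1 unit as a doubling, which holds only for log2 arrays that had this standard deviation to begin with, and are called nominal for that reason.

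Brown fat burns fatty acids to make heat. Noradrenaline from sympathetic nerves acts on β-adrenergic receptors of the brown adipocyte, adenylyl cyclases raise cAMP, and lipolysis releases the fatty acids that fuel and activate UCP1, the uncoupling protein of the inner mitochondrial membrane. The same signal raises DIO2, which makes active thyroid hormone in the cell, and the coactivator PGC-1α, encoded by *Ppargc1a*, which drives mitochondrial biogenesis. ELOVL3 elongates very long chain fatty acids, CIDEA is a lipid droplet protein, and COX7A1 and COX8B are subunits of cytochrome c oxidase.

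Some arrays stand apart and bear on what follows. The BAT markers *Ucp1*, *Cidea*, *Cox7a1* and *Cox8b* were bright on all 37 arrays, and *Ucp1* lay between 14.82 and 15.69 units over the 35 BXD strains. *Dio2* and *Elovl3* were dimmer. Their lowest values, 8.17 units in BXD103 and 8.54 in BXD69, came near the background of 7.94 units. Skeletal muscle and liver transcripts were also present. The mean of 10 muscle genes ranged from 9.65 in BXD65 to 13.47 in BXD97. The mean of 8 liver genes was 12.56 in BXD70 and 10.53 in the parent DBA/2J, against at most 8.20 in any other strain. BXD70 and BXD65 both fell in the high group, and calls of named genes that ended without them are pointed out. In a bulk sample, fewer cells of a type and less RNA per cell cannot be told apart.

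The score ran from 12.72 in BXD84 to 14.02 in BXD70. The high group comprised, from the top, BXD70, BXD87, BXD45, BXD51, BXD55, BXD62, BXD98, BXD75, BXD90, BXD65, BXD95 and BXD92. The low group comprised, from the bottom, BXD84, BXD97, BXD103, BXD69, BXD83, BXD99, BXD96, BXD79, BXD43, BXD89, BXD64 and BXD50. The limits of the groups fall in a gradual slope, as the ranking of the 35 strains shows. BXD92, the last high strain, scored 13.49 and BXD61, the next, 13.44. BXD50, the first low strain, scored 13.24 and BXD80, just outside, 13.26. Of the parents, C57BL/6J scored 13.70, with 6 BXD strains above it, and DBA/2J scored 13.58, with 9 above it.

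**Figure D1:**
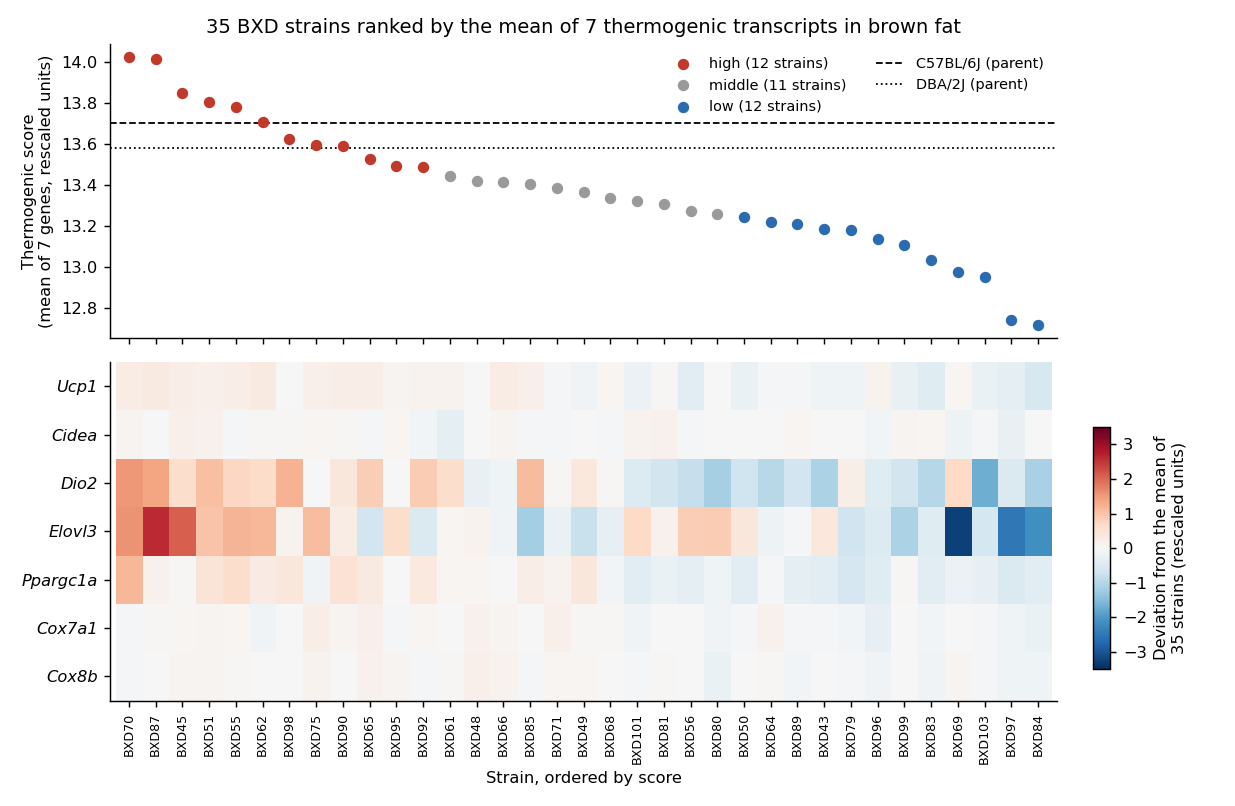
Top: thermogenic score (rescaled units) of the 35 BXD strains in order of rank, 12 high, 11 middle and 12 low, with the parents as lines. Bottom: deviation of each score gene from its mean over the 35 strains, in rescaled units. *Elovl3* and *Dio2* carry most of the colour, and *Cidea*, *Cox7a1* and *Cox8b* are pale throughout.

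The 7 transcripts did not contribute equally to the gap of 0.65 units between the group means of the score. *Elovl3* made up 38.8% of it, *Dio2* 31.7%, *Ppargc1a* 14.6% and *Ucp1* 8.63%. The remaining share was 2.72% from *Cox7a1*, 2.13% from *Cox8b* and 1.36% from *Cidea*. The ranking is therefore mainly one by *Elovl3* and *Dio2*, the transcripts that varied most among strains.

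*Elovl3* in the low strains had a lowest value of 8.54, a median of 11.27 and a highest of 12.20 units, and in the high strains 11.15, 12.84 and 14.44. The groups overlapped, and the lowest value, in BXD69, lay beside a high *Dio2* of 10.58 in the same strain. *Dio2* had 8.17, 9.20 and 10.58 in the low strains and 9.89, 10.68 and 11.42 in the high strains. The differences of the group means, chosen by the rule, were 1.77 units for *Elovl3* and 1.45 for *Dio2*, nominally 3.41-fold and 2.72-fold. *Ppargc1a* had 11.51, 11.72 and 12.14 in the low strains against 11.97, 12.41 and 13.26 in the high strains. *Ucp1* had 14.82, 15.18 and 15.49 against 15.36, 15.60 and 15.69, so the gene that defines the tissue differed by 0.39 units, nominally 1.31-fold. *Cidea*, *Cox7a1* and *Cox8b* differed by 0.06, 0.12 and 0.10 units, and their groups overlapped widely.

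When a score gene was left out of the ranking and the strains ranked by the other 6, its own difference was smaller or equal. For *Dio2* it was 0.91 units and for *Elovl3* 0.84, against 0.65 for *Ppargc1a* and 0.37 for *Ucp1*. *Cidea* differed by 0.03 units in that case. Across the 35 strains *Dio2* ran with *Ppargc1a* (Pearson's *r* = 0.74) and with *Ucp1* (*r* = 0.72), and *Cox7a1* with *Cox8b* (*r* = 0.77). *Cidea* was unrelated to *Dio2* (*r* = -0.06) and to *Ucp1* (*r* = 0.08), and *Elovl3* ran loosely with *Dio2* (*r* = 0.25). These correlations describe 35 strains that share alleles and have no p-value here.

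Outside the score, 279 of 41147 probe sets differed between the groups at an adjusted p below 0.05 (limma with Benjamini-Hochberg adjustment over all of them), which is 0.678%. The high strains had more of 165 transcripts (0.401%) and less of 114 (0.277%). At an unadjusted p of 0.05, 2802 probe sets were higher (6.81%) and 2549 lower (6.19%), 5351 in all. Over all probe sets the median difference was 0.01 units and 53.4% were positive, and these are the values against which the gene lists below are read. Many probe sets were dim: 19436 of 41155 lay above background, as did 258 of the 279 calls and most members of the metabolic lists. The share called among probe sets above background was therefore larger than 0.678%. With dim probe sets left out the median difference was -0.0002 units. The adjusted p measures how a transcript varied with the ranking across strains, and a transcript that follows *Elovl3* or *Dio2* for any reason can pass. The differences were small: the median of the higher transcripts was 0.33 units and that of the lower ones -0.34.

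The number of calls depended on the strains in each group and on the genes in the score. Without BXD70 and BXD65, with the next strains BXD61 and BXD48 in their place, 74 probe sets were higher (0.18%) and 47 lower (0.114%), and 70 and 45 of these were among the calls with all strains. With *Elovl3* left out of the score, 44 were higher and 20 lower, of which 33 and 14 were shared, and with *Dio2* left out 89 and 88, of which 45 and 42 were shared. All 165 higher and all 114 lower transcripts kept their sign in these cases, which is likely where most strains are shared. Leaving out 1 strain at a time gave between 69 (without BXD55) and 307 (without BXD89) higher transcripts, and between 51 and 211 lower ones. Both counts fell without any 1 strain of the high group, from 69 and 51 without BXD55 to 146 and 101 without BXD92. Without strains of the low group they moved either way. Both fell without BXD84 (100 and 61), for example, and both rose without BXD69 (245 and 173) or BXD89 (307 and 211).

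The largest difference was that of *Gyk*, now *Gk*, which encodes glycerol kinase and lets brown fat re-use glycerol for triglycerides. The low strains had a lowest value of 9.77, a median of 10.59 and a highest of 12.21 units, and the high strains 11.30, 11.68 and 12.45. All 12 high strains lay above the low median, while 1 low strain, at 12.21, lay among the high ones. The difference was 1.17 ± 0.20 units (SE), nominally 2.25-fold (adjusted p = 0.0049). *Gys2*, the glycogen synthase best known from liver, had 10.16, 10.86 and 11.50 in the low strains and 11.37, 11.75 and 12.30 in the high strains. Its difference of 0.91 ± 0.13 units had the lowest adjusted p of the comparison, 0.0016. *Acot11*, a thioesterase of brown fat that frees fatty acids from coenzyme A, had 9.99, 10.55 and 11.24 against 10.55, 11.44 and 12.29, a difference of 0.82 ± 0.17 units (adjusted p = 0.021). A dimmer probe set of *Acot11* was also higher, though not without BXD70 and BXD65 (adjusted p = 0.053).

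Other transcripts with the largest positive differences came from several functions. *Ccrn4l*, now *Noct*, the rhythmic phosphatase nocturnin, was higher by 0.79 ± 0.11 units and *Paqr9*, of the progestin and adipoQ receptor family, by 0.75 ± 0.11 (adjusted p = 0.0016 for both). *Dhrs9*, a dehydrogenase that acts on retinol, was higher by 0.70 units (adjusted p = 0.016) and *O3far1*, now *Ffar4*, a receptor for long chain fatty acids, by 0.69 (adjusted p = 0.0049). The adaptor *Traf4* was higher by 0.62 ± 0.09 units (adjusted p = 0.0016). *Lsm4*, of the splicing machinery, was higher by 0.59 units, and *Slco4a1*, a carrier of organic anions including thyroid hormones, by 0.54. *Tmem20* (now *Slc35g1*), *Nepn* and 1700037H04Rik were higher by 0.64, 0.64 and 0.58 units. *Lsm4* did not pass without BXD70 and BXD65 (adjusted p = 0.18).

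Among the lower transcripts, *Gadd45b*, a stress gene, had a lowest value of 9.59, a median of 9.98 and a highest of 10.50 units in the low strains, and 8.40, 9.42 and 9.78 in the high strains. No high strain exceeded the low median. It was lower, with a difference of -0.68 units (adjusted p = 0.021). *Fryl* was lower on 4 probe sets, the strongest at -0.65 (adjusted p = 0.0038). That probe set also passed without BXD70 and BXD65 (adjusted p = 0.023), and the other *Fryl* probe sets did not (0.064 to 0.15). *Slc6a8*, the creatine transporter, had 11.57, 12.11 and 12.57 units in the low strains and 10.96, 11.50 and 11.96 in the high strains, a difference of -0.58 ± 0.12 (adjusted p = 0.023). *Mtr*, methionine synthase, was lower, with a difference of -0.52 ± 0.07 units with the lowest adjusted p, 0.0016, shared with *Trip10*, an adaptor of CDC42 signalling, at -0.48 ± 0.07. *Ivns1abp* differed by -0.63 units, *Gm889* (now *Lsmem1*) by -0.64, the cofilin phosphatase *Ssh2* by -0.52 and the Wnt inhibitor *Apcdd1* by -0.52. Smaller differences were those of the actin-binding *Svil* (-0.49), *Pik3ip1* (-0.49), *Ahcyl2* (-0.49), *Zfp330* (-0.48) and 9530026P05Rik (-0.45). *Ivns1abp* (adjusted p = 0.068), *Gm889* (0.11), *Apcdd1* (0.19), *Svil* (0.15), *Pik3ip1* (0.061) and 9530026P05Rik (0.071) did not pass without BXD70 and BXD65.

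Only *Dgat1* and *Magi3* had groups that did not overlap, 1 transcript in each direction (0.00243% each). *Dgat1*, which catalyses the last step of triglyceride synthesis, ran from 12.90 to 13.34 units in the low strains and from 13.38 to 13.76 in the high strains. The difference was 0.36 ± 0.06 units (adjusted p = 0.0038, and 0.048 without BXD70 and BXD65). *Magi3*, a scaffold protein of cell junctions, barely separated: 9.374 to 9.62 in the low strains and 9.03 to 9.371 in the high strains. Its difference was -0.24 ± 0.05 (adjusted p = 0.017). *Magi3* was named after its values were seen, and without BXD70 and BXD65 its adjusted p was 0.051.

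**Figure D2:**
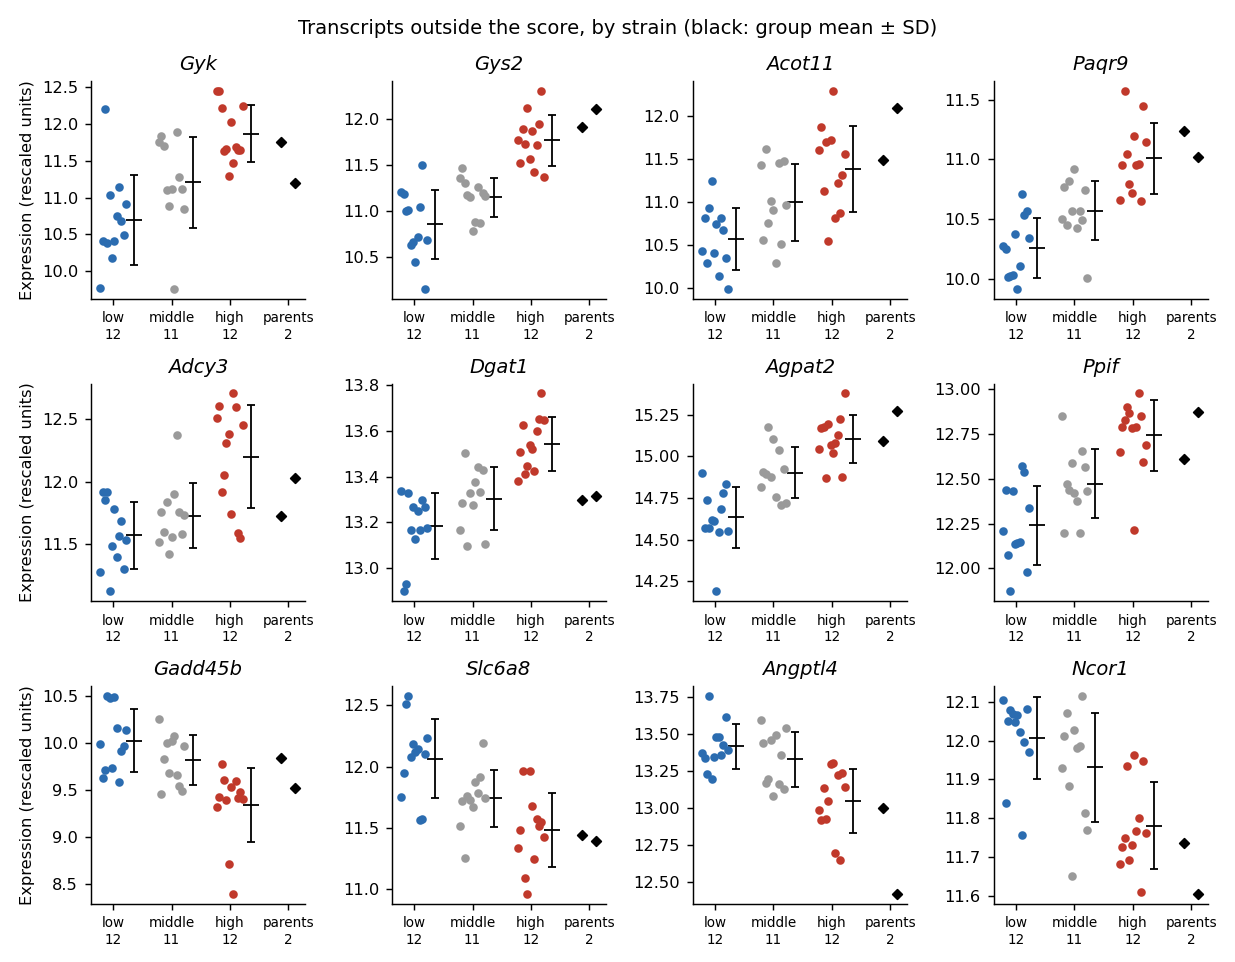
Expression (rescaled units) of 12 transcripts outside the score in the 12 low, 11 middle and 12 high BXD strains and the 2 parents. Points are strains and the black marks are group means with SD. The means of the 4 transcripts in the bottom row fall from low to high, those of the others rise, and *Dgat1* is the one whose low and high strains do not overlap.

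The middle strains and the parents were not used in the test. The mean of the 11 middle strains lay between the group means for 163 of the 165 higher and 112 of the 114 lower transcripts. That position is likely for any probe set picked for a wide gap between the groups. The share over all probe sets was not computed, so these counts say little. C57BL/6J was nearer to the high than to the low mean for 133 of the higher (80.6%) and 98 of the lower transcripts (86.0%), against 53.4% over all probe sets. DBA/2J was nearer to the high mean for 117 (70.9%) and 88 (77.2%), against 52.4%. Both parents had scores inside the range of the high group. DBA/2J also carried liver transcripts, and their part in these counts was not tested. For *Gys2* the parents had 12.11 (C57BL/6J) and 11.91 units (DBA/2J), in the range of the high strains. For *O3far1* they had 9.90 and 10.38, within the range of the low strains, 9.45 to 10.44.

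Other known brown fat genes had mostly positive differences too. Of 26 with a probe set, 4 were higher and none was lower at the adjusted threshold, 24 differences were positive and the median was 0.15 units. *Gyk* and *Acot11* are given above. *Otop1*, an ion channel of brown fat, had 12.53, 12.97 and 13.42 units in the low strains and 13.11, 13.46 and 13.63 in the high strains (difference 0.44 ± 0.09, adjusted p = 0.016). *Ppargc1b*, the coactivator related to *Ppargc1a*, was higher by 0.28 ± 0.06 units (adjusted p = 0.034, and 0.057 without BXD70 and BXD65). *Prdm16*, the transcription factor that specifies brown fat, differed by 0.24 units with an adjusted p of 0.056, and it was named after its values were seen.

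Adrenergic and cAMP signalling gave 1 call in each direction among 39 genes, and the median was 0.05 units. *Adcy3*, an adenylyl cyclase, had 11.12, 11.55 and 11.92 units in the low strains and 11.55, 12.35 and 12.71 in the high strains. It was higher by 0.63 ± 0.14 (adjusted p = 0.027), and the high strains spread more widely than the low ones. It differed by 0.57 units and did not pass without BXD70 and BXD65 (adjusted p = 0.072). *Adrb3*, the main β-receptor of brown fat in mice, had 10.93, 11.73 and 12.21 against 11.45, 12.01 and 12.39, a difference of 0.30 with an adjusted p of 0.29. *Adrb1* differed by 0.31 units (adjusted p = 0.18). These values of *Adrb3* and *Adrb1* were added after they were seen. Of the brightest members, *Prkar2b*, a regulatory subunit of protein kinase A, differed by 0.16 (adjusted p = 0.10) and *Pde3b*, a phosphodiesterase, by 0.10 (adjusted p = 0.65). *Rgs2*, a brake on G protein signalling, differed by -0.21 (adjusted p = 0.61).

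Fatty acid and triglyceride synthesis had mostly positive differences. Of 23 genes 2 were higher, *Dgat1* and *Agpat2*, and 22 differences were positive with a median of 0.25 units. *Agpat2*, which acylates lysophosphatidic acid, had 14.19, 14.62 and 14.90 in the low strains and 14.87, 15.10 and 15.38 in the high strains. The groups overlapped by a narrow margin, and the difference was 0.47 ± 0.07 units (adjusted p = 0.0018). The fatty acid synthase *Fasn* differed by 0.16 units (adjusted p = 0.28), the desaturase *Scd1* by 0.05 (adjusted p = 0.63) and *Dgat2* by 0.03 (adjusted p = 0.86). Named after their values were seen, *Srebf1*, the transcription factor of lipogenesis, differed by 0.32 units (adjusted p = 0.074) and the elongase *Elovl6* by 0.54 (adjusted p = 0.084). Of 22 genes of cholesterol synthesis none passed, although 21 differences were positive, 11 had an unadjusted p below 0.05 and the median was 0.19 units. Its brightest members were *Hmgcs1* at 0.44 units (adjusted p = 0.070), *Sc5d* at 0.28 and *Fdft1* at -0.27. Liver makes these lipids too, and its part in the medians of these lists was not tested. Without BXD70 and BXD65 the medians were 0.16 units for both lists, with 5 and 6 genes at an unadjusted p below 0.05.

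Genes that handle stored and circulating fat gave few calls. None of 18 genes of lipolysis and the lipid droplet passed, with a median of 0.09 units. *Pnpla2*, the lipase that starts lipolysis, differed by 0.05 units with a 95% interval of -0.03 to 0.14, *Cidec* by 0.19 (adjusted p = 0.17) and the glycerol channel *Aqp7* by -0.06. Of 19 genes of fatty acid uptake, 1 was lower: *Angptl4*, a secreted inhibitor of lipoprotein lipase, had 13.20, 13.38 and 13.76 units in the low strains and 12.65, 13.09 and 13.30 in the high strains (difference -0.37 ± 0.08, adjusted p = 0.023). The transporter *Cd36* differed by 0.05 units (interval -0.04 to 0.14), *Acsl1* by 0.13 and the fatty acid binding protein *Fabp4* by 0.03. In the uptake list 14 differences were positive, 7 had an unadjusted p below 0.05 and the median was 0.05 units. Among 27 secreted factors of fat, *Gm6484*, now *Angptl8*, another regulator of lipoprotein lipase, was higher by 0.55 ± 0.12 units (adjusted p = 0.033), *Angptl4* was lower, and *Vegfa* and *Vegfb* differed by 0.03 and 0.06. Neither *Angptl4* (adjusted p = 0.057) nor *Gm6484* (0.11) passed without BXD70 and BXD65.

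The lists of the oxidative machinery gave 2 calls, which count list members only. None of 26 genes of mitochondrial fatty acid oxidation passed (median 0.05 units), nor did any of 4 genes of complex II (0.08), 9 of complex III (0.06), 13 of complex IV and cytochrome *c* (0.04) or 16 of ATP synthase (0.01). Of 36 complex I genes 1 was higher, *Ndufa8*, by 0.19 ± 0.04 units (adjusted p = 0.033, and 0.098 without BXD70 and BXD65), and the median was 0.06. *Atp5b* of ATP synthase differed by 0.02 (interval -0.05 to 0.09), *Sdha* of complex II by 0.02 (-0.07 to 0.11), *Cox6a1* of complex IV by 0.02 and *Uqcrc2* of complex III by 0.04. *Hadh* and *Acadm* of β-oxidation differed by 0.06 and 0.08. *Cox6a2*, a muscle form of a complex IV subunit, differed by -0.73 units (adjusted p = 0.26) and was named after its value was seen. Of 28 genes of the TCA cycle and of pyruvate entry, 1 was higher: *Brp44*, now *Mpc2*, a subunit of the mitochondrial pyruvate carrier, by 0.37 ± 0.07 units (adjusted p = 0.012). *Idh3g* and *Pdk4* differed by 0.05 and -0.06. Of the 28 differences 24 were positive, 11 had an unadjusted p below 0.05 and the median was 0.09 units. Outside these lists, *Cox15* (0.31 units, adjusted p = 0.0049), *Cox10* (0.30, 0.013), *Sco1* (0.31, 0.010) and *Ndufaf4* (0.37, 0.021) were among the higher transcripts. These were named after their values were seen. *Sco1* did not pass without BXD70 and BXD65 (adjusted p = 0.070). None of them passed with the mean of the muscle list below as a covariate (adjusted p from 0.052 to 0.13).

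Several genes of the lists on mitochondrial biogenesis and dynamics and on the mitochondrial ribosome were higher. Of 29 genes of mitochondrial biogenesis and dynamics 3 were higher. *Ppif*, which encodes cyclophilin D of the permeability transition pore, had 11.87, 12.18 and 12.57 units in the low strains and 12.22, 12.79 and 12.98 in the high strains (difference 0.51 ± 0.09, adjusted p = 0.0049). *Tomm40*, the channel of the outer membrane translocase, had 10.46, 10.62 and 10.88 against 10.80, 10.96 and 11.22 (0.35 ± 0.06, adjusted p = 0.0049), and *Letm1*, an ion exchanger of the inner membrane, was higher by 0.36 ± 0.07 (adjusted p = 0.016). Of 76 genes of the mitochondrial ribosome 4 were higher, *Mrps2* (0.44 units), *Mrpl34* (0.44), *Mrps27* (0.30) and *Mrpl10* (0.25). In that list 64 differences were positive, 25 had an unadjusted p below 0.05 and the median was 0.10 units. Without BXD70 and BXD65, 2 of the ribosomal genes and all 3 of the biogenesis genes passed.

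In glucose metabolism, 2 of 27 genes were higher: *Gys2* and *Pfkp*, the platelet form of phosphofructokinase (0.47 ± 0.09 units, adjusted p = 0.012). *Gapdh* differed by 0.04 units, *Gpi1* by 0.09 and the lactate carrier *Slc16a1* by 0.16 (adjusted p = 0.26). Among 33 nuclear receptors, cofactors and thyroid hormone genes, *Cebpb*, a transcription factor of early adipogenesis, was higher by 0.30 ± 0.06 units (adjusted p = 0.024) and *Nr1h3*, the oxysterol receptor LXRα, by 0.27 ± 0.06 (adjusted p = 0.049). *Ncor1*, the nuclear receptor corepressor, was lower: the low strains had 11.76, 12.05 and 12.11 units and the high strains 11.61, 11.76 and 11.96 (difference -0.23 ± 0.05, adjusted p = 0.033). *Pparg* differed by 0.19 (adjusted p = 0.094), *Cebpa* by 0.11 and *Ppara* by -0.09, and *Esrra*, the estrogen-related receptor α, by 0.22 (adjusted p = 0.12), the last named after its value was seen. *Cebpb* also passed without BXD70 and BXD65, and *Nr1h3* and *Ncor1* did not (adjusted p = 0.11 for both).

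**Figure D3:**
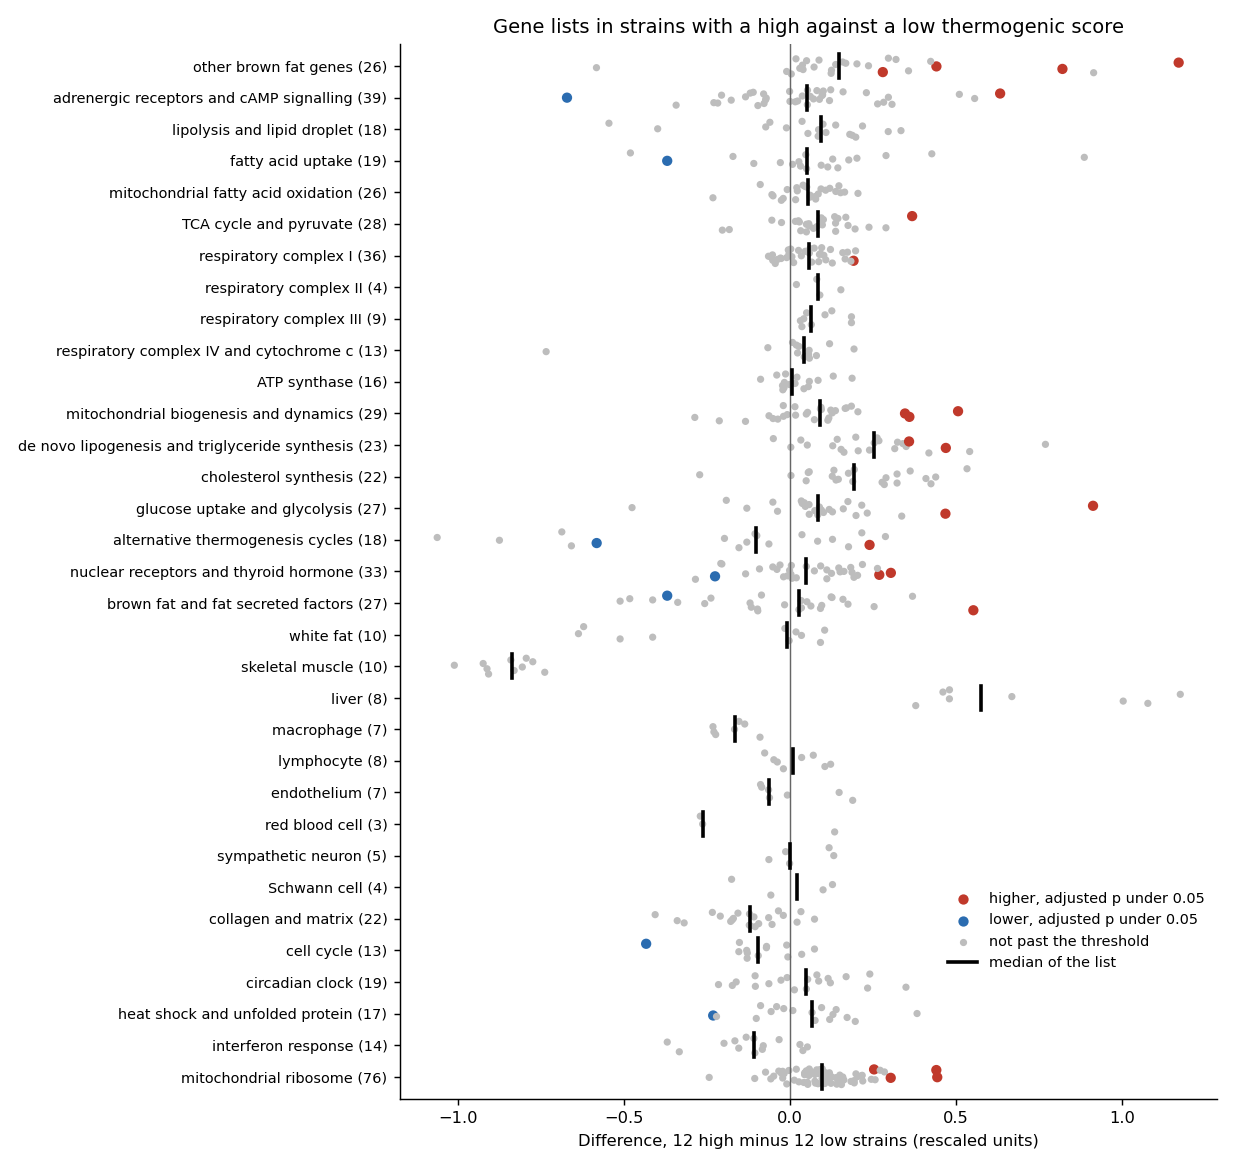
Differences of the genes of 33 lists between the 12 high and 12 low strains (rescaled units), 1 point a gene, with the median of each list as a black bar and the number of genes with a probe set in parentheses. Red and blue points passed the adjusted threshold. The brown fat, lipid synthesis and mitochondrial ribosome lists lie mostly to the right, and the skeletal muscle list lies wholly to the left.

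Heat cycles that do not need UCP1 gave a mixed picture. Of 18 genes, *Gpd1*, the cytosolic glycerol phosphate dehydrogenase, was higher by 0.24 ± 0.06 units (adjusted p = 0.040, and 0.12 without BXD70 and BXD65), *Slc6a8* was lower, and the median was -0.10, or 0.03 with the mean of the muscle list below as a covariate. *Gpd2*, the mitochondrial partner of *Gpd1*, differed by 0.29 (adjusted p = 0.072). Some members that muscle also uses had large negative values that did not pass. In calcium cycling, *Atp2a1*, the fast muscle calcium pump, differed by -0.69 and the muscle calcium channel *Ryr1* by -0.88 (adjusted p = 0.26 for both). In creatine cycling, *Ckmt2*, a mitochondrial creatine kinase, differed by -1.06 (adjusted p = 0.18). *Ryr1* and *Ckmt2* were named after their values were seen. With the muscle covariate, *Ckmt2* differed by -0.09 and *Ryr1* by 0.05 units.

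Of 10 transcripts of skeletal muscle none passed the adjusted threshold. All 10 differences were negative, 9 had an unadjusted p below 0.05, and the median was -0.84 units. The list mean had a lowest value of 11.20, a median of 12.75 and a highest of 13.47 in the low strains and 9.65, 12.21 and 12.64 in the high strains. The groups overlapped, and the values below 11 units in the high group were those of BXD65, BXD95 and BXD90. All 10 markers were above background. *Acta1*, skeletal actin, differed by -0.74 units, *Myh4*, a fast myosin heavy chain, by -0.81, and *Tnnt3*, a fast troponin, by -0.91 (adjusted p = 0.23, 0.28 and 0.18). Without BXD70 and BXD65 the median of the list was -0.55. With the list mean as a covariate, 24 probe sets were higher (0.0583%) and 37 lower (0.0899%), of which 20 and 29 were among the calls without it. All 279 kept their sign. The ratio of the difference with the covariate to that without it had a median of 0.97 and ran from 0.45 to 1.30. In 7 of the 279 the difference shrank by over 1.5 times, among them *Svil*, from -0.49 to -0.22 units, and *Gm889*, from -0.64 to -0.36. Of the calls in the gene lists, *Gyk*, *Adcy3*, *Dgat1*, *Agpat2*, *Tomm40*, *Gys2*, *Angptl4* and *Cdk1* still passed. Of the 4 brown fat calls, *Otop1* (adjusted p = 0.081), *Acot11* (0.13) and *Ppargc1b* (0.16) did not pass, and of the 3 biogenesis calls, *Ppif* (0.052) and *Letm1* (0.073) did not. None of the 4 genes of the mitochondrial ribosome passed (0.082 to 0.16). In metabolism *Brp44* (0.074), *Pfkp* (0.052), *Ndufa8* (0.13), *Gpd1* (0.19), *Slc6a8* (0.093) and *Gm6484* (0.15) did not pass. Nor did the regulators *Cebpb* (0.057), *Nr1h3* (0.082), *Ncor1* (0.081) and *Xbp1* (0.11). Among the largest differences, the calls of *Dhrs9*, *Lsm4*, *Slco4a1*, *Tmem20*, *Nepn*, *Gadd45b*, *Gm889*, *Apcdd1*, *Svil*, *Pik3ip1* and 9530026P05Rik ended with the covariate (adjusted p from 0.054 to 0.24).

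**Figure D4:**
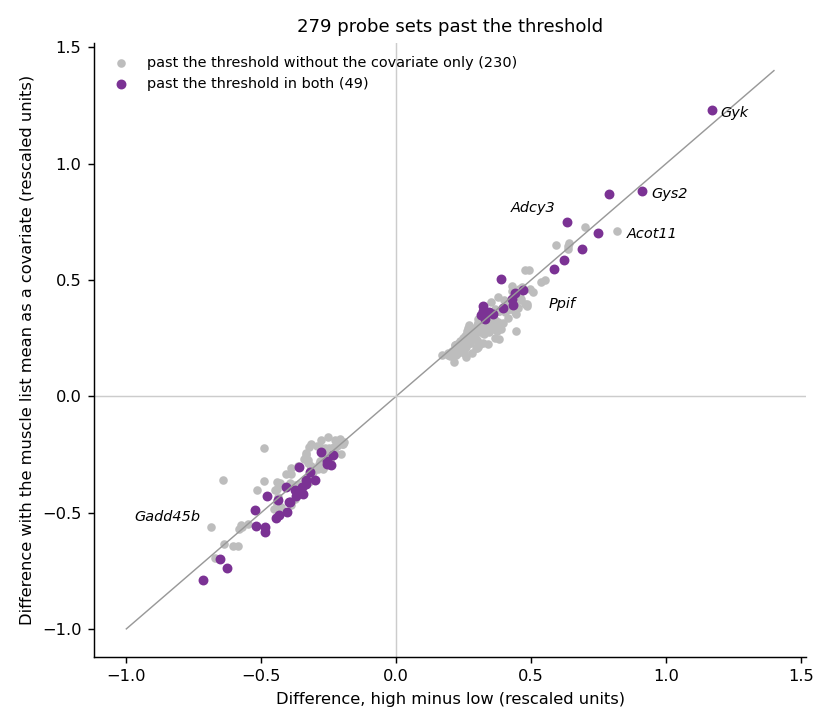
Difference between high and low strains (rescaled units) of the 279 probe sets past the threshold, without (x axis) and with (y axis) the mean of the skeletal muscle list as a covariate. The line marks equal values. The 49 purple points passed in both fits, and all points keep their sign.

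The 8 liver genes had positive differences with a median of 0.57 units, and none passed the threshold. The list mean ran from 6.996 to 12.56 in the high strains, highest in BXD70, with a median of 7.196. In the low strains it ran from 6.80 to 7.37 with a median of 6.91. BXD90 (7.94), BXD55 (7.61) and BXD75 (7.59) also lay above every low strain. Without BXD70 and BXD65 the median difference was 0.13, and the list averaged 7.21 in the high and 6.99 in the low strains. Of the markers, *Alb*, *Apoa1* and *Ttr* were above background and *Serpina1c*, *Fgg*, *Apob*, *Hamp* and *Gc* were not. With the liver list as a covariate, 66 probe sets were higher and 38 lower. Of the list calls that passed with the muscle covariate, *Gyk*, *Dgat1*, *Agpat2*, *Tomm40* and *Gys2* also passed with the liver list. *Adcy3*, *Angptl4* and *Cdk1* did not. Other list calls that ended with it included *Slc6a8*, *Cebpb*, *Ncor1*, *Xbp1*, *Ppargc1b*, *Ndufa8*, *Gpd1* and *Gm6484*.

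Markers of the other cell types showed no call. The 10 white fat genes had a median of -0.01 units, with 4 differences positive and 6 negative. Their list means ran from 9.01 to 10.08 in the low strains (mean 9.52) and from 8.94 to 9.62 in the high strains (mean 9.32). *Lep*, leptin, differed by -0.51 (adjusted p = 0.65). *Dpt*, a matrix protein of white fat, differed by -0.64 (adjusted p = 0.051), and *Hoxc9*, *Nnmt* and *Tcf21* were not above background. The 7 macrophage genes had negative differences with a median of -0.17, with list means from 9.29 to 10.19 in the low and from 8.92 to 10.02 in the high strains, and *Lyz2* differed by -0.22. The 7 endothelial genes had a median of -0.06 (list means 11.20 to 11.58 and 11.18 to 11.50). Of 8 lymphocyte genes only *Cd3e* was above background, of 5 genes of sympathetic neurons *Th* and *Npy*, and of 3 red blood cell genes all but *Hbb-b1*. Their medians were 0.01, 0.00 and -0.26 units, with list means of 7.16 to 7.60, 7.62 to 7.97 and 7.61 to 8.33 in the low strains and 7.16 to 7.70, 7.68 to 8.04 and 7.43 to 8.33 in the high strains. The 4 Schwann cell genes had a median of 0.02 (list means 9.48 to 9.98 and 9.19 to 9.998).

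**Figure D5:**
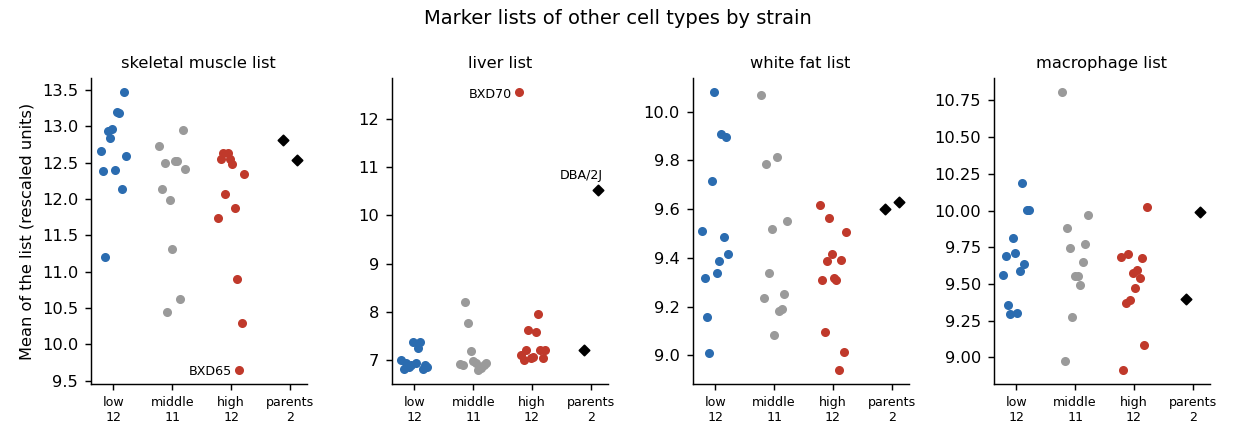
Mean of the marker genes (rescaled units) of skeletal muscle, liver, white fat and macrophages in the 12 low, 11 middle and 12 high strains and the 2 parents. Muscle means reach lowest in the high group, at 9.65 in BXD65, and liver means are high in BXD70 and DBA/2J.

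The remaining lists gave few calls, and the collagen, cell cycle and interferon lists had mostly negative differences. Of 22 collagen and matrix genes none passed, 19 were negative and the median was -0.12 units, with *Dcn*, decorin, at -0.23 (adjusted p = 0.13). Of 13 cell cycle genes *Cdk1* was lower, with a difference of -0.43 ± 0.09 (adjusted p = 0.021), though its mean over the strains was not above background. In that list 11 differences were negative and the median was -0.10. In 17 genes of heat shock and the unfolded protein response, *Xbp1*, a transcription factor of that response, was lower, with a difference of -0.23 ± 0.05 units (adjusted p = 0.023, and 0.10 without BXD70 and BXD65), and *Hspa9* differed by 0.09. None of 19 clock genes (median 0.05) or 14 interferon genes (median -0.11, 11 negative) passed, and *Nr1d1*, the clock repressor REV-ERBα, differed by 0.05 (interval -0.22 to 0.32).

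The transcripts whose values followed the score most closely over all 35 strains are given as a description, since the groups came from the same values. *Slmo2*, now *Prelid3b*, which moves lipids between mitochondrial membranes, had the highest Pearson's *r*, 0.81, followed by *Letm1* (0.81) and *Lman2*, a cargo receptor of the secretory pathway (0.81). *Dgat1* reached 0.80, *Paqr9* 0.79, *Gys2* 0.79 and *Mtch2*, a protein of the outer mitochondrial membrane, 0.78. *Agpat2* had 0.78, *Gja1*, a gap junction protein, 0.77, and U05342 0.77. The calls of *Lman2* (adjusted p = 0.099) and *Gja1* (0.070) ended without BXD70 and BXD65. The lowest were *Ppp3ca*, the catalytic subunit of calcineurin (-0.84), *Ahcyl2* (-0.78), *Exoc6* of the exocyst (-0.78), the ornithine aminotransferase *Oat* (-0.76) and *Trip10* (-0.75). *Slmo2* had 10.81, 11.06 and 11.44 units in the low strains and 11.37, 11.53 and 11.66 in the high strains, and *Ppp3ca* 10.68, 10.86 and 10.995 against 10.44, 10.62 and 10.70.

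Promoters of transcripts that moved together were searched for 4 motifs on both strands, in the RefSeq windows of 300 bases around gene starts (GRCm38.p6). Of the higher genes 119 of 157 had a window, and of the lower genes 79 of 99. The cAMP response element, TGACGTCA, was in 5 of the higher and 2 of the lower, and in 3.08% of 10143 windows of genes above background. The NRF1 motif, GCGCA followed by any base and GCGC, was in 18 of the higher (15.1%) and 7 of the lower (8.86%), against 9.96%. The E-box, CACGTG, was in 19 of the higher and 12 of the lower (15.2%), against 10.2%. The oestrogen-related receptor element, TCAAGGTCA, was in 2 and 0, against 0.276%. No motif contains another. Over all 27025 windows the shares were 1.88%, 4.78%, 7.24% and 0.407%. These are matches of letters and say nothing of binding. The windows of *Dio2*, *Gk* and *Prelid3b* are printed because these are, in turn, a main carrier of the score, the largest difference outside it and the closest follower of it. Capitals mark the motif found, a cAMP response element in *Dio2*, an E-box in *Gk* and an NRF1 motif in *Prelid3b*, and all 3 are on the minus strand at chr12:90738989-90739288, chrX:85776770-85777069 and chr2:174472892-174473191.
Dio2: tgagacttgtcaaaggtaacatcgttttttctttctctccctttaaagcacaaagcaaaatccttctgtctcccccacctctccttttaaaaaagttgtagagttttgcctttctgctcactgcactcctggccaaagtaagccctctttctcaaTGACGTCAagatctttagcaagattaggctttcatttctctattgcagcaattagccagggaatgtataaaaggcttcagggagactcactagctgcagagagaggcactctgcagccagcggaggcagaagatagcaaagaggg
Gk: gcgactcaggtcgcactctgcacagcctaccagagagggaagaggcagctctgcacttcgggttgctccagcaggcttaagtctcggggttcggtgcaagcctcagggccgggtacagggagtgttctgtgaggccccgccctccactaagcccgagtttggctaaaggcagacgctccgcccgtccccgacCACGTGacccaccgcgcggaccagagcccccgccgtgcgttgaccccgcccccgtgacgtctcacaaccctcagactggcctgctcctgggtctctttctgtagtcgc
Prelid3b: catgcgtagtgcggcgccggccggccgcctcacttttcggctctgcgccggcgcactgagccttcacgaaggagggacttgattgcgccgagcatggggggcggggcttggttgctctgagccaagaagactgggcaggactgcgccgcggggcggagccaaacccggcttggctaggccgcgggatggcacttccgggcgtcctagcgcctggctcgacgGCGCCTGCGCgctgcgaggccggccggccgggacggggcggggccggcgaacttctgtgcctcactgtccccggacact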

How the data were processed

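Brown fat was measured in 35 BXD strains and 2 parents, 1 array per strain. The deposited table has 41345 probe sets on 37 arrays. Its values are scores, which the authors scaled so that each array has mean 8 and SD 2. Submitters' processing notes name Affymetrix Expression Console, and the summary method, log base and build are not given in the sources used here. Tests had been planned for log2-type array values. Rescaling can stretch or shrink an array, so quantile normalization and median centring were alternatives. Arrays have no read depth, and their number and the background limit the precision.

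The 190 control probe sets and 8 of the score genes were left out, leaving 41147. Of the rest, 28392 probe sets had a symbol, with 25 symbols damaged into dates. Background was the 95th percentile of 1128 olfactory receptor probe sets, 7.94 units. Group differences were fitted with lmFit and eBayes of limma 3.58.1 in R 4.3.3, two-sided, with Benjamini-Hochberg adjustment at 0.05. The step was tested on simulated data with independent noise and groups set in advance. Groups here were cut from measured values, so that test does not bear on the calls. Intervals are 95%. RefSeq (GRCm38.p6) served for current symbols and promoters.

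The score, the strains and the gene lists were chosen with earlier results of these data known. Genes named are the 7 score genes, called list members (up to 8 a direction) and, in lists with under 3, the 3 brightest members, the 15 largest called differences a direction among named probe sets above background, the 10 highest and 5 lowest correlations with the score, and cell type markers. A gene's brightest probe set stood for it. A few genes that this rule names are counted but not reported here on their own.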

Additional observations from a re-analysis of the deposited data

How the results depend on the processing

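No paired analysis was possible because each strain has 1 array and the groups share no replicate numbers. All 165 higher and 114 lower transcripts kept their sign under every alternative that tested the same probe sets. That is likely for probe sets picked for wide gaps and refitted on largely the same strains, so it says little about stability. The counts of calls moved as follows (165 higher and 114 lower in the comparison as reported). Without BXD70 and BXD65 the counts were 74 and 47, and with 17 strains a group 71 and 56. Without *Cidea* in the score, or with *Ucp1*, *Dio2*, *Elovl3* and *Ppargc1a* alone, 106 were higher, without *Dio2* 89, and without *Elovl3* 44 and 20. The score as a continuous covariate over 35 strains gave 390 and 277, and leaving out dim probe sets 365 and 297. With the muscle list as a covariate the counts were 24 and 37, with the liver list 66 and 38, and with the white fat list 243 were lower. An adjusted p of 0.01 left 24 and 16, and a difference of at least 0.5 units 17 and 16. The methods' t-test gave 2869 and 2505 at an unadjusted p of 0.05, and 195 and 127 after Benjamini-Hochberg adjustment.

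Alternatives chosen after seeing the data were ranking by *Elovl3* alone (33 and 23, of which 2 and 4 were shared with the score), by *Dio2* alone (69 higher), by genes scaled to SD 1 without BXD70 and BXD65 (97 higher), and the muscle covariate without these strains (6 and 9). Quantile normalization, median centring, 8 strains a group, genes scaled to SD 1, a score without *Ucp1*, *Ppargc1a*, *Cox7a1* or *Cox8b*, and averaging the probe sets of a gene kept both counts within 1.5 times. With 1 strain left out at a time the counts ran from 69 to 307 higher and from 51 to 211 lower. Higher counts moved by over 1.5 times without BXD55 (69), BXD45 or BXD51 (79), BXD87 (82), BXD65 or BXD70 (89), BXD90 (95), BXD75 (97), BXD84 (100), BXD95 (106) or BXD89 (307). Lower counts did so without BXD55 (51), BXD51 (52), BXD45 (55), BXD87 (58), BXD103 (59), BXD84 (61), BXD70 or BXD83 (62), BXD79 (65), BXD65 (67), BXD90 (68), BXD97 (75), BXD69 (173) or BXD89 (211). The cause of these moves was not tested. Signals near the olfactory receptor background limit what can be read for dim transcripts.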
